A study of Mus musculus with 8 samples.

Results

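The members of the MAGE (melanoma antigen) family described here are Mageb4, Maged1, Maged2 and Magee1, chosen by gene symbol from the probe annotation of the array. They are 4 of 8808 genes with a named probe, each has 1 probe, all 4 probes passed the filter on dim signals, and all 4 genes lie on the X chromosome. The arrays measured mouse embryonic stem (ES) cells of 3 kinds from the strain B6129F1 on single-colour Illumina bead arrays. Androgenetic cells hold paternal genomes only (3 arrays, passages 6, 7 and 8, lines labelled female and male with both X and Y), parthenogenetic cells hold maternal genomes only (2 arrays, passages 6 and 7, labelled female), and fertilized cells hold a genome from each parent (3 arrays, passages 6, 7 and 8, lines labelled female and male with both X and Y). The labels name no engineered allele and no treatment for any group. The labels name passages and not separate lines, so the p-values below measure the spread between passages, and the labels do not say how many X chromosomes a cell carried in the androgenetic or fertilized lines.

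MAGE proteins share a conserved MAGE homology domain, through which several of them bind RING-type E3 ubiquitin ligases. Type I members, such as those of the MAGE-B subfamily, are normally restricted to germ cells, are silenced elsewhere with the help of promoter DNA methylation, and are known in humans for reappearing in tumours. Type II members, which include MAGE-D, MAGE-E, necdin and trophinin, are expressed in many tissues and strongly in the nervous system. Mageb4 is the type I gene of the set and is known from mouse germ cells. Maged1 (also NRAGE or Dlxin-1) encodes an adaptor of the neurotrophin receptor p75 and of Dlx and Msx homeodomain proteins, Maged2 encodes a close relative known in humans for a role in salt transport of the fetal kidney, and Magee1 (also DAMAGE) encodes a partner of dystrobrevin in the dystrophin complex.

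The sequence just before the start of each gene is shown because CpG dinucleotides there are the substrate of the methylation that silences type I genes, and because the 3 type II genes moved together in the results below. These are the 250 bases before the annotated start, from RefSeq on build GRCm38.p6, read 5′ to 3′ along the gene, with CpG dinucleotides in capitals. Maged2 has 4 annotated starts, and the one printed was chosen because its window, with the overlapping window of the fourth start, holds the most CpGs.
Mageb4, chrX:86256220-86256469, minus strand: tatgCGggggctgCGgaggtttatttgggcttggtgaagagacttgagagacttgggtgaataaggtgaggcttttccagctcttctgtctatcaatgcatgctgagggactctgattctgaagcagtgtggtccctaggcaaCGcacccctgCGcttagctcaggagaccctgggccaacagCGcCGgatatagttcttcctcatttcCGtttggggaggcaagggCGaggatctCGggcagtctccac
Maged1, chrX:94542026-94542275, minus strand: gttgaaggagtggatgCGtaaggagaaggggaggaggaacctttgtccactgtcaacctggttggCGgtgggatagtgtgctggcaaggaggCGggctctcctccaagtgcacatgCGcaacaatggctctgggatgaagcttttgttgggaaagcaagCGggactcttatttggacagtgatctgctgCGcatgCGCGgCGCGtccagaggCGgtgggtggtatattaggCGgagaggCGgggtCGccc
Maged2, chrX:150813003-150813252, minus strand: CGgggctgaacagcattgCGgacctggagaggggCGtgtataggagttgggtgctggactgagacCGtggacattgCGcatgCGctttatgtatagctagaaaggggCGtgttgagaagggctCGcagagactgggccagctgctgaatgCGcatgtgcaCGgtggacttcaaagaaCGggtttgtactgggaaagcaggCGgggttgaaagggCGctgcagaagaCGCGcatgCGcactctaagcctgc
Magee1, chrX:105120128-105120377, plus strand: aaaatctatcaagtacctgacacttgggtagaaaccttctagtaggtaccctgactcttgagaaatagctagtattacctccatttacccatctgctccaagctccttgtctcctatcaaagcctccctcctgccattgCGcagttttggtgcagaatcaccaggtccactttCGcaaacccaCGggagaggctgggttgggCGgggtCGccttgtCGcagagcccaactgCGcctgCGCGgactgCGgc
The Mageb4 window holds 9 CpG dinucleotides, the Maged1 window 14, the printed Maged2 window 16 and the Magee1 window 10, against a median of 6 (quartiles 2 and 16) over the 32851 windows of this length in the table. A motif that includes the core recognised by the transcription factor NRF1, CGCNTGCG on either strand and overlapping no other motif named here, was looked for after these sequences had been read. It begins 61 bases before the start of Maged1, 174 and 22 bases before the printed start of Maged2, and 19 bases before the start of Magee1. Mageb4 holds no match in its window, nor do the first and second starts of Maged2. Of all windows, 6.76% hold at least 1 match and 1.19% hold 2 or more. The motif itself contains CpGs, and these shares are not matched for CpG content. The printed windows with a match hold 10 to 16 CpGs, above the median of 6, so the shares do not show how rare a match is in such windows. The GC box GGGCGG was found in the windows of Magee1 and of the first and second starts of Maged2 and in 32.7% of all windows. Neither the E-box CACGTG (6.02% of all windows) nor the E2F-type letters GGCGGGA (9.75%) occurred in any window of the members. The matches describe these letters only, and binding and methylation were not measured.

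Across the series 12300 probes were kept, of which 385 belong to X-linked genes, and 10623 to 11174 probes per array were detected above the negative controls. The labelled cell type was checked against 10 ES cell markers, all of them measured. Their summed signal was 118768 to 120366 on parthenogenetic arrays, 102187 to 107220 on fertilized arrays and 32865 to 36333 on androgenetic arrays, where 9 of 10 were detected and Fgf4 was not. Pou5f1, Sox2 and Nanog were each detected on every array. Each of the 10 was called lower on androgenetic than on fertilized arrays, against 37.8% of all kept probes. Among the 9 detected the fall ran from 1.455-fold (Zfp42) to 12.3-fold (Utf1). The androgenetic label is kept here, but these arrays had a weaker ES cell profile than the other 2 kinds. The markers do not settle the identity of the androgenetic cells. Gene levels are given below as log2 signal after background correction and quantile normalization, differences as log2 change, and a call as a Benjamini-Hochberg adjusted p under 0.05 over all kept probes.

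Mageb4 was measured above background only in parthenogenetic cells. Its log2 signal was 8.13 and 8.06 on the 2 parthenogenetic arrays, with a mean of 8.09 ± 0.048 (SD, n = 2). On the fertilized arrays it was 6.26, 5.83 and 5.98 (6.03 ± 0.22, SD, n = 3), below the 6.603 to 6.851 at which detection began on those arrays, with detection p-values of 0.0301, 0.0927 and 0.0476. On the androgenetic arrays it was 5.02, 5.15 and 5.39 (5.19 ± 0.19, SD, n = 3), with detection p-values of 0.55, 0.371 and 0.199. The deposited intensities were 372.7 and 281.8 on parthenogenetic arrays, 127.8 to 145.1 on fertilized arrays and 99.16 to 120 on androgenetic arrays. Both parthenogenetic arrays lay above all others, and the fertilized and androgenetic arrays did not overlap either, although neither of those groups reached a detection p under 0.01 on any array. The probe passed the filter through the 2 parthenogenetic arrays alone, so a difference from the other groups was built into its passing. A pseudogene of the subfamily, Mageb10-ps, is annotated close to Mageb4, and because the probe sequence was not used here, a part of the signal from a near-identical copy cannot be told apart from Mageb4.

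Parthenogenetic cells held at least 2.635-fold more Mageb4 signal than fertilized cells (log2 change 2.07 ± 0.15 SE). They held at least 2.67-fold more than androgenetic cells (log2 change of androgenetic against parthenogenetic -2.91 ± 0.15 SE). No p-value is given for either change, since the probe was kept only because the parthenogenetic arrays detected it. These bounds set the parthenogenetic mean against the signal at which detection begins, since the other groups lay below it. They apply to the background-corrected values alone. With the authors' deposited log2 values the androgenetic against parthenogenetic change was -1.63. Androgenetic cells were called lower than fertilized cells (log2 change -0.84 ± 0.13 SE, adjusted p = 0.000362), but both groups were below detection and no fold is given. That last change was -0.33 with the authors' deposited log2 values, and the parthenogenetic against fertilized change was 1.26 with no background correction.

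**Figure D1:**
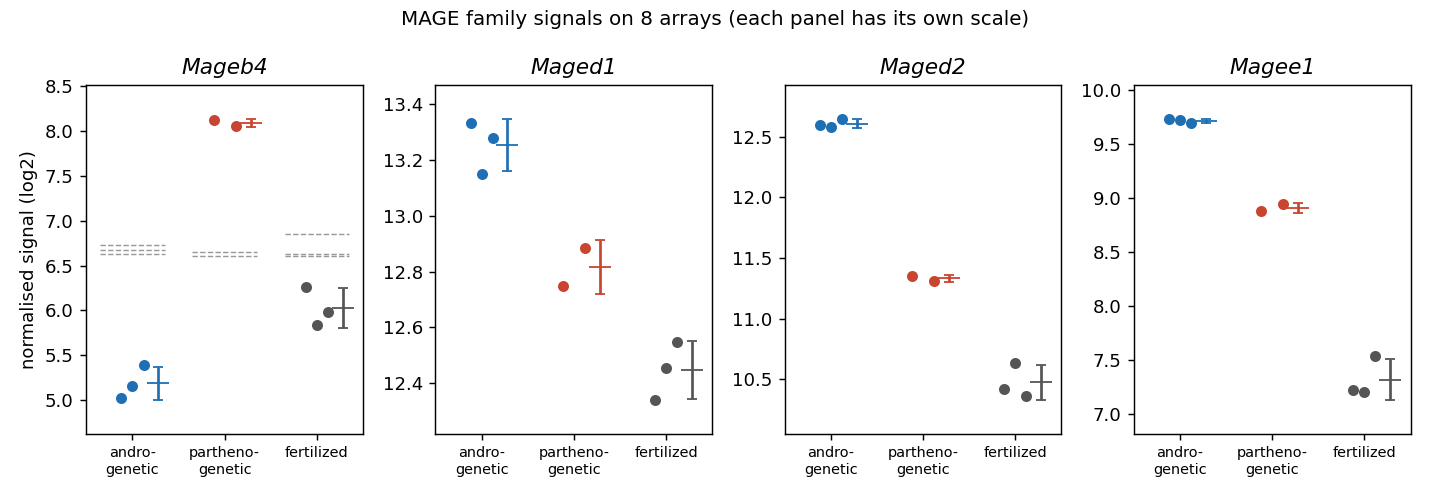
Normalised log2 signal of the 4 genes on each of the 8 arrays, by kind of ES cell, with each panel on its own vertical scale. Dots are arrays, bars are means with the SD, and dashed lines in the Mageb4 panel mark where detection begins on each array. Mageb4 clears those lines only on the 2 parthenogenetic arrays, whereas Maged1, Maged2 and Magee1 are highest on androgenetic and lowest on fertilized arrays.

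Maged1, Maged2 and Magee1 were detected on all 8 arrays, and each was highest in androgenetic, intermediate in parthenogenetic and lowest in fertilized cells. Fewer cells expressing a gene and less RNA per cell cannot be told apart in these bulk samples. Maged1 had log2 signals of 13.33, 13.15 and 13.28 in androgenetic cells (13.25 ± 0.094, SD, n = 3), 12.75 and 12.89 in parthenogenetic cells (12.82 ± 0.097, SD, n = 2) and 12.34, 12.45 and 12.55 in fertilized cells (12.45 ± 0.10, SD, n = 3). No 2 groups overlapped, and the step between neighbouring groups was 0.37 to 0.44. Maged1 was thus 1.75-fold higher in androgenetic than in fertilized cells (log2 change 0.81 ± 0.088 SE, adjusted p = 3.60e-05), 1.36-fold higher in androgenetic than in parthenogenetic cells (0.44 ± 0.099 SE, adjusted p = 0.00349) and 1.29-fold higher in parthenogenetic than in fertilized cells (0.37 ± 0.099 SE, adjusted p = 0.0172). The last of these calls was lost without parthenogenetic replicate 2 (log2 change 0.30, adjusted p = 0.127) and when only the arrays of the 2 groups were fitted (adjusted p = 0.0518).

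Maged2 was spread more widely. Its log2 signals were 12.59, 12.58 and 12.65 in androgenetic cells (12.61 ± 0.036, SD, n = 3), 11.35 and 11.31 in parthenogenetic cells (11.33 ± 0.026, SD, n = 2) and 10.42, 10.64 and 10.36 in fertilized cells (10.47 ± 0.15, SD, n = 3). The 3 groups stood apart on every array. Maged2 was 4.39-fold higher in androgenetic than in fertilized cells (log2 change 2.13 ± 0.086 SE, adjusted p = 7.52e-08) and 2.42-fold higher in androgenetic than in parthenogenetic cells (1.28 ± 0.097 SE, adjusted p = 4.09e-06). Parthenogenetic cells exceeded fertilized cells 1.81-fold (0.86 ± 0.097 SE, adjusted p = 0.000239).

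Magee1 was the dimmest of the type II probes in fertilized cells but was detected there on all 3 arrays. Its log2 signals were 9.73, 9.72 and 9.69 in androgenetic cells (9.71 ± 0.021, SD, n = 3), 8.87 and 8.94 in parthenogenetic cells (8.91 ± 0.048, SD, n = 2) and 7.215, 7.196 and 7.533 in fertilized cells (7.31 ± 0.19, SD, n = 3). The highest fertilized array lay well below the lowest parthenogenetic one. Magee1 was 5.27-fold higher in androgenetic than in fertilized cells (log2 change 2.40 ± 0.099 SE, adjusted p = 8.24e-08) and 3.02-fold higher in parthenogenetic than in fertilized cells (1.59 ± 0.11 SE, adjusted p = 2.10e-05). Androgenetic cells exceeded parthenogenetic cells 1.75-fold (0.81 ± 0.11 SE, adjusted p = 0.000184).

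The androgenetic against fertilized comparison sets cells with paternal genomes only against cells with a genome from each parent. These kinds also differed in their ES cell markers, so an effect of the genome alone was not tested. In this comparison Maged1, Maged2 and Magee1 were called higher (36.2% of all kept probes were). Mageb4, below background in both groups, was called lower (37.8% of all kept probes). In parthenogenetic against fertilized cells, where both genomes are maternal, Maged1, Maged2 and Magee1 were called higher, against 19.7% of all kept probes and 69.1% of the 385 probes of X-linked genes. Mageb4 was called higher too, but its probe was kept only because these 2 arrays detected it, so its call does not count with the others. In androgenetic against parthenogenetic cells the same 3 genes were called higher and Mageb4 lower, with the same limit, against 35.2% and 35.7% of all kept probes. In the first and the last of these comparisons most probes were called in one direction or the other, 74% and 70.9%, so a call by itself singles out no member. Among probes of X-linked genes 37.1% were called higher and 30.9% lower in androgenetic against fertilized cells, 3.12% lower in parthenogenetic against fertilized cells, and 21.8% higher and 55.1% lower in androgenetic against parthenogenetic cells. Of all kept probes 39.7% were called in parthenogenetic against fertilized cells, and 20% of all kept probes were called lower. The arrays of no member overlapped in any comparison, but non-overlap was common: 38% of all kept probes lay wholly higher and 39% wholly lower in androgenetic against fertilized cells, 28.9% and 29.3% in parthenogenetic against fertilized cells, and 42.4% and 43% in androgenetic against parthenogenetic cells. The 3 comparisons share arrays and are not independent of each other.

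X-linked genes gave a closer measure, since all 4 members lie on that chromosome. The median log2 change over the 385 X-linked probes was 0.62 (quartiles 0.33 and 0.88) in parthenogenetic against fertilized cells, 0.054 (quartiles -0.45 and 0.67) in androgenetic against fertilized cells and -0.48 (quartiles -1.08 and 0.15) in androgenetic against parthenogenetic cells. In parthenogenetic against fertilized cells the rise of Maged1 (95% confidence interval 0.15 to 0.60) lay wholly below that median, and 276 of the 385 probes, its own included, rose at least as much. The rise of Maged2 (interval 0.64 to 1.08) was larger than the median by 0.24 and was equalled by 106 probes. Magee1 (interval 1.34 to 1.85) exceeded the median by 0.97, and 16 X-linked probes had changes as large. Mageb4 is not ranked, since its fertilized arrays gave no signal above background. In androgenetic against fertilized cells 14 X-linked probes reached the change of Maged2, 11 that of Magee1 and 87 that of Maged1. These ranks describe the values and are not tests.

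**Figure D2:**
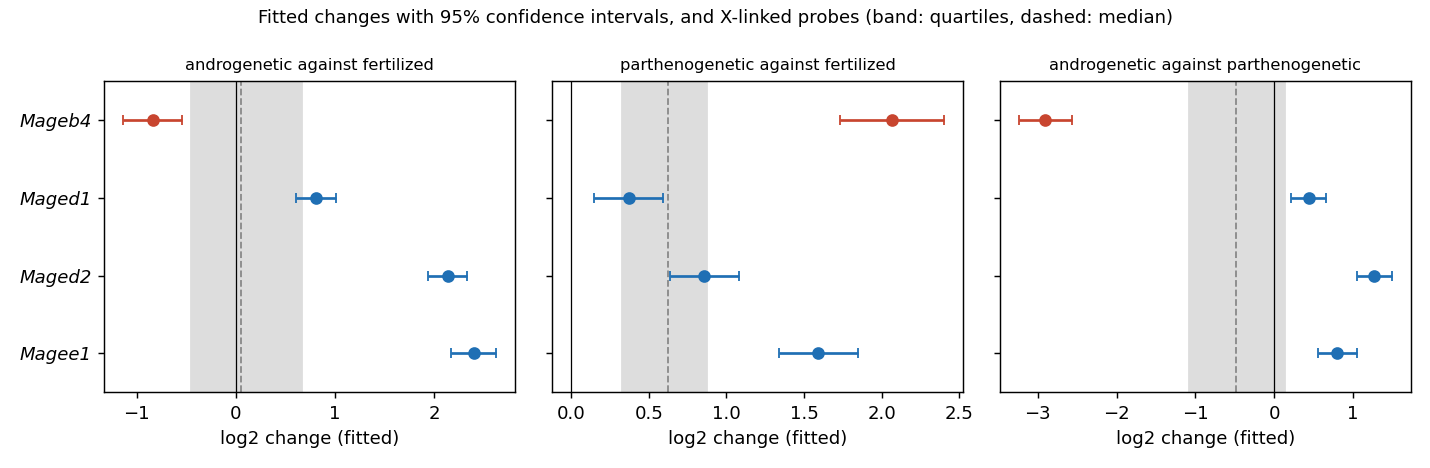
Fitted log2 change of each gene (horizontal axis) in the 3 comparisons, with 95% confidence intervals. The grey band gives the quartiles and the dashed line the median of the 385 X-linked probes. Mageb4 lies below the band in the 2 comparisons of androgenetic cells and above it in parthenogenetic against fertilized cells, where Maged1 and Maged2 lie inside it. The fitted values of Mageb4 rest on androgenetic and fertilized arrays below background.

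The germline-restricted member was set directly against the broadly expressed ones by taking, on each array, the log2 signal of Mageb4 minus the mean of the other 3. This difference changed by -2.62 from fertilized to androgenetic cells, with no overlap of the arrays (exact permutation test, two-sided, p = 0.1, the smallest that 3 against 3 arrays allow). It changed by 1.13 from fertilized to parthenogenetic cells and by -3.75 from parthenogenetic to androgenetic cells (exact permutation p = 0.2 each, the smallest that 3 against 2 arrays allow). None of the 3 tests could reach 0.05 in this design, so nothing is drawn from their p-values. The Mageb4 probe was kept only because the parthenogenetic arrays detected it, so a difference was built into both changes that involve those arrays. With Mageb4 raised to the start of detection on the arrays that did not detect it, an alternative chosen after seeing the data, the 3 changes were -1.80, 0.46 and -2.26. Mageb4 was below detection in both androgenetic and fertilized cells, so for that pair the value at the start of detection holds the rise of the type II genes alone. In parthenogenetic against fertilized cells the bound for Mageb4, at least 2.635-fold, exceeded the 1.81-fold of Maged2. As a lower bound it does not place Mageb4 above or below the 3.02-fold of Magee1.

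Other members of the family had the order of the type II genes. Of 28 further family symbols looked for, 3 had an annotated probe and 2 of those genes, Ndn and Tro, had one that was kept. Necdin (Ndn) lies on chromosome 7 and is known as imprinted, with expression from the paternal allele. Its log2 signals were 11.996, 12.146 and 11.928 in androgenetic cells, 11.017 and 10.983 in parthenogenetic cells and 9.999, 10.098 and 10.049 in fertilized cells. It was 3.93-fold higher in androgenetic than in fertilized cells (log2 change 1.98 ± 0.080 SE, adjusted p = 7.28e-08), and also 1.93-fold higher in parthenogenetic than in fertilized cells (0.95 ± 0.089 SE, adjusted p = 9.57e-05), although parthenogenetic cells hold no paternal allele. Trophinin (Tro), an X-linked type II gene named for its role in cell adhesion, was 2.72-fold higher in androgenetic and 1.71-fold higher in parthenogenetic than in fertilized cells (adjusted p = 9.58e-06 and 0.00311). Of its other 2 kept probes, one gave 1.37 and 1.08 (log2) in these comparisons, and the other was not well above background on any fertilized array, so that no exact change is given. Both missed the threshold between androgenetic and parthenogenetic cells (adjusted p = 0.105 and 0.0643), where the brightest probe passed (0.67, adjusted p = 0.00265). Among probes of X-linked genes, 69.1% were called higher in parthenogenetic against fertilized cells, with a median log2 change of 0.62. Mageh1 was detected on 1 of 8 arrays and was not kept, with mean log2 signals of 6.32, 6.63 and 5.77 in androgenetic, parthenogenetic and fertilized cells.

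Of 16 ligases and other partners known for MAGE proteins, 11 were measured. In androgenetic against fertilized cells 4 rose, 4 fell and 3 did not pass (median log2 change -0.056, against -0.020 over all kept probes), which is about the share called higher and lower over all kept probes, 36.2% and 37.8%. Pja1, the X-linked gene of the praja ring finger ligase that binds MAGED1, rose 1.75-fold (log2 change 0.81, adjusted p = 1.04e-05), its relative Pja2 by 0.84, and the ubiquitin protease Usp7 fell by 0.65 (log2). Trim28, a co-repressor and the ligase partner of human MAGE-C2, had a log2 change of -0.53 (adjusted p = 0.000133). In parthenogenetic against fertilized cells 2 rose, 2 fell and 7 did not pass (median 0.055). Pja1 was 1.61-fold higher (log2 change 0.69, adjusted p = 0.000303), near the median of 0.62 over probes of X-linked genes, of which 69.1% were called higher. The ring finger genes Rnf166 and Lnx2, not X-linked, fell by 0.82 and 0.47 (log2). Pja1 did not pass between androgenetic and parthenogenetic cells (0.12 ± 0.081 SE, adjusted p = 0.228). There 4 partners rose and 4 fell, Rnf166 by 0.90 and Pja2 by 0.86 upward, and Trim28 with a change of -0.90 (log2).

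Of 18 symbols tied to MAGED1, 11 genes were measured. Of these 7 rose and 1 fell in androgenetic against fertilized cells (median 0.84), against 36.2% higher and 37.8% lower of all kept probes. Ngfr, which encodes the p75 receptor itself, was 3.02-fold higher (log2 change 1.59 ± 0.11 SE, adjusted p = 2.20e-06), and the netrin receptor gene Unc5b 4.59-fold higher (2.20 ± 0.084 SE, adjusted p = 5.50e-08). Msx1, a homeobox gene, was at least 16.4-fold higher, being undetected on all fertilized and parthenogenetic arrays. In parthenogenetic against fertilized cells 5 rose, 2 fell and 4 did not pass (median -0.0070), against 19.7% higher and 20% lower of all kept probes. Bex1, Bex2 and Bex3, among the 5 that rose, are X-linked, and 69.1% of the probes of X-linked genes were called higher there. Ngfr was 2.81-fold higher there (adjusted p = 5.65e-05), and Bex2, an X-linked gene of the brain-expressed family that includes p75-binding Bex3, rose by 0.92 (log2). Rora, a nuclear receptor gene, was undetected in both uniparental kinds and at least 1.98-fold lower in parthenogenetic than in fertilized cells. Between androgenetic and parthenogenetic cells 5 rose and 1 fell, against 35.2% and 35.7% of all kept probes, while Ngfr did not pass (0.10 ± 0.13 SE, adjusted p = 0.487). The largest rises were those of Msx1 (at least 17.2-fold), Unc5b (3.62-fold) and the TAK1 kinase gene Map3k7 (1.10, log2). The fall was that of Bex2 (-0.50, adjusted p = 0.00942). Of its other 2 probes one fell (-0.38, adjusted p = 0.0115) and one rose (0.325, adjusted p = 0.0122).

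Genes of the dystrophin complex, to which MAGEE1 binds, moved in both directions. Of 11 looked for, 5 were measured. In androgenetic against fertilized cells 2 rose and 3 fell (median -0.61), against 36.2% and 37.8% of all kept probes. The rises were those of Sgcb and of the dystroglycan gene Dag1 (log2 change 0.49 and 0.28, adjusted p = 0.000559 and 0.0448). The other probe of Dag1 missed the threshold there (adjusted p = 0.0629). Dtnb and Dtna, which encode the dystrobrevins, had log2 changes of -1.33 ± 0.074 and -0.80 ± 0.13 (SE), and the syntrophin gene Sntb2 had -0.61. In parthenogenetic against fertilized cells Dtna and Dtnb fell by 0.46 and 0.41 (log2, adjusted p = 0.0317 and 0.00490) and the other 3 did not pass (median -0.27). Of all kept probes 20% were called lower there. Between androgenetic and parthenogenetic cells 2 rose and 2 fell (median -0.34), against 35.2% and 35.7% of all kept probes. Dtnb and Sntb2 had -0.92 and -0.67, and Dag1 and Sgcb had 0.55 and 0.51 (log2). The other probe of Sntb2 missed the threshold in that comparison (-0.43, adjusted p = 0.106).

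**Figure D3:**
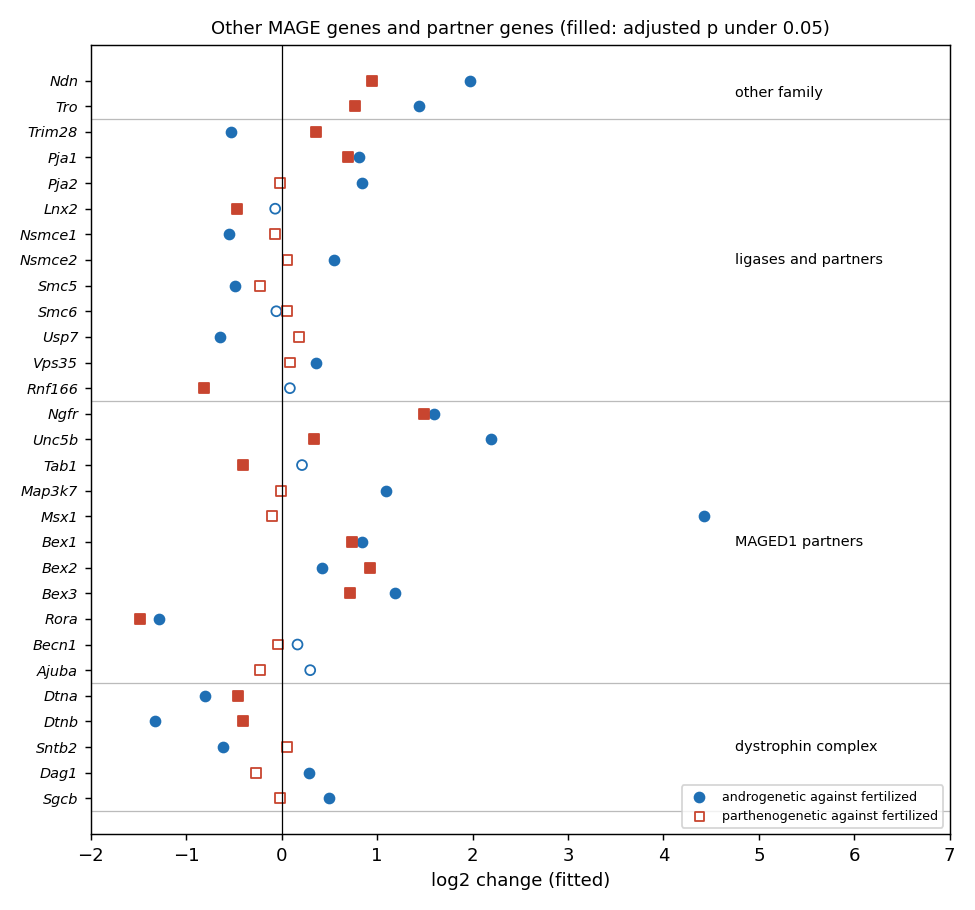
Fitted log2 change (horizontal axis) of every measured gene of the other family members, the ligases and partners, the MAGED1 partners and the dystrophin complex, in androgenetic (circles) and parthenogenetic (squares) against fertilized cells. Filled symbols passed an adjusted p of 0.05. Ndn, Tro, Pja1 and Ngfr lie to the right in both comparisons, and Dtna and Dtnb to the left in both.

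Germline genes known to be silenced by promoter methylation were counted next. Of 22 symbols looked for 10 were measured, and 9 of these were called higher in parthenogenetic against fertilized cells (median 1.20), against 19.7% of all kept probes and 69.1% of those of X-linked genes. Tex11, Taf7l, Rhox5, Rhox6, Rhox9 and Xlr4a are X-linked, and Asz1 was detected only on parthenogenetic arrays, so that it passed the filter through the group where it is high. Xlr4a, Rhox9 and Rhox5, all X-linked, rose the most, with log2 changes of 6.07, 3.17 and 2.83. In androgenetic against fertilized cells 9 fell and none rose (median -1.85), against 37.8% called lower of all kept probes and 30.9% of those of X-linked genes. Tex11 was at least 2.43-fold lower. In androgenetic against parthenogenetic cells all 10 measured genes fell, against 35.7% of all kept probes and 55.1% of those of X-linked genes. Asz1 is counted in the 9 rises and in these 10 falls, although its passing the filter built in both differences. Of genes for DNA methylation and the complex that silences germline genes, 18 symbols were looked for and 12 measured. In androgenetic against fertilized cells 10 fell and 2 rose (median -0.52), against 37.8% and 36.2% of all kept probes. Dnmt3l, a cofactor of new methylation, was 17.3-fold lower, and Pcgf6 and Dnmt3b had log2 changes of -1.23 and -0.85. The same list had 6 rises and 3 falls in parthenogenetic against fertilized cells (median 0.28), against 19.7% and 20% of all kept probes. Mga, a subunit of that complex, rose by 0.63, and Ehmt1 and Dnmt3l fell by 0.48 and 0.46 (log2), although the other 2 probes of Ehmt1 did not pass there (-0.12 and -0.11, adjusted p = 0.304 and 0.627). Pcgf6 and L3mbtl2, of the same complex, had -1.38 and -1.17 in androgenetic against parthenogenetic cells. In androgenetic against parthenogenetic cells 9 fell and 1 rose (median -0.82), against 35.7% and 35.2% of all kept probes. Broadly expressed X-linked genes, 9 measured of 17 symbols, rose in 6 and fell in 0 cases in parthenogenetic against fertilized cells (median 0.64), close to the 69.1% and the median of 0.62 of all probes of X-linked genes, among them Kdm6a by 1.06 and Eif2s3x by 0.82 (log2). In androgenetic against fertilized cells 0 of them rose and 2 fell, Pgk1 by 1.84 and Hprt by 0.52 (1 of the other 2 Hprt probes missed the threshold, adjusted p = 0.0948), and in androgenetic against parthenogenetic cells 0 rose and 7 fell. Of all probes of X-linked genes 37.1% and 21.8% were called higher, and 30.9% and 55.1% lower, in these comparisons.

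Neighbouring genes on the X chromosome were read as a further reference, the 2 nearest measured genes on each side in the RefSeq order, a choice made after the members' values were seen. On one side of Mageb4 the nearest measured gene, Pcyt1b, a phosphatidylcholine synthesis gene, had the same signs as Mageb4, with a log2 change of 1.47 in parthenogenetic and -0.40 in androgenetic against fertilized cells (adjusted p = 6.86e-06 and 0.000938). Tab3, on the other side, was higher in both (0.87 and 0.23). Tmem47, beyond Tab3, had 1.22 in androgenetic against fertilized cells, and Pdk3, beyond Pcyt1b, had -0.59. Around Maged1 the 4 neighbours Eif2s3x, Klhl15, Gspt2 and Zxda had changes of 0.79 to 1.63 in parthenogenetic against fertilized cells, all larger than the 0.37 of Maged1, and in androgenetic against fertilized cells they ran from -0.93 to 0.44, all smaller than its 0.81. The nearest measured genes around Maged2 were Tro, with 1.44 in androgenetic against fertilized cells, and Gnl3l, with -0.66, while Capn6, beyond Tro, had 2.76 and Tsr2, beyond Gnl3l, had -0.15 and did not pass (adjusted p = 0.0816). The nearest measured genes around Magee1, Pbdc1 and Atrx, had -0.15 and -0.20 in that comparison and did not pass, while Zdhhc15, one further, had 1.30 and Cox7b, one further on the other side, had -0.47 (adjusted p = 0.0371).

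**Figure D4:**
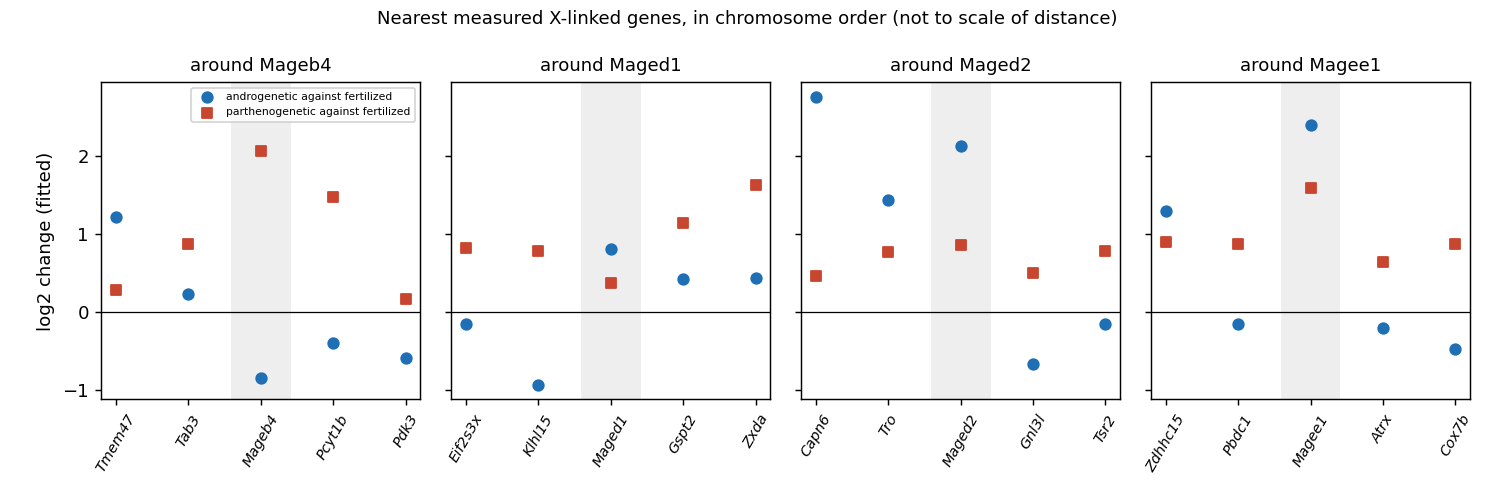
Fitted log2 change (vertical axis) of each gene (grey column) and of the 2 nearest measured X-linked genes on either side, in chromosome order and not to scale, for androgenetic (circles) and parthenogenetic (squares) against fertilized cells. Maged1 has the lowest square and the highest circle of its 5 genes, and Tro and Capn6 beside Maged2 are raised with it.

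Genes whose values over the 8 arrays were most like those of each member were ranked by Pearson correlation among 8221 genes. These correlations mainly follow the differences between the 3 kinds of cell, which all genes share, and are given as a description. Mageb4 was above background on 2 of the 8 arrays only, so the genes ranked most like it, Slc27a2, Ccnd3, Ttc14, Aoah and Shisa7, were ranked largely on background values. For Maged1 they were Mpg, Ap3m1, Prep, Ccdc97 and Abcb1b (0.987 to 0.994), and for Maged2 Bdnf, Arl2bp, Acta2, Cdc34 and Ddr1 (0.997 to 0.999). For Magee1 they were Mpp1, Neo1, Nudt10, Gpx1 and Tulp4 (0.995 to 0.998), of which Mpp1 and Nudt10 are X-linked. An r of at least 0.95 was reached with Maged1 by 3.78%, with Maged2 by 7.90% and with Magee1 by 2.96%.

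Markers of other cell types moved with the groups, and their part in these results was not tested. Of 13 fibroblast markers, looked for because ES cells are often grown on such cells, 4 were measured, and their summed signal had the order of the type II genes, at 5264 to 5468 on androgenetic, 2016 to 2201 on parthenogenetic and 965 to 1201 on fertilized arrays, where Col1a1 was not detected. Col5a1 made up most of the androgenetic sum, while Thy1 was lower there than in fertilized cells (log2 change -0.46, adjusted p = 0.0175). For neural markers, 5 of 7 measured, the sums were 7056 to 7237, 5046 to 5416 and 2054 to 2099 in the same order of groups, and Nefm was undetected outside androgenetic cells. Map2 and Stmn2 ran against that order, being lower in androgenetic than in parthenogenetic cells (log2 change -1.03 and -0.48, adjusted p = 5.12e-06 and 0.000835). For trophectoderm markers, 6 of 8 measured, they were 79350 to 85086, 23412 to 23414 and 19820 to 22146, and Eomes was undetected outside androgenetic cells. Krt8 and Krt18 made up most of the androgenetic sum. Tfap2c ran against it, being lower in androgenetic than in parthenogenetic cells (log2 change -0.62, adjusted p = 0.000177). Primitive endoderm markers, 5 of 7 measured, gave 3401 to 3642, 1962 to 2201 and 4461 to 5621, an order that none of the 4 MAGE genes had, with Sox7 undetected in androgenetic and Gata6 in parthenogenetic cells. Germ cell markers, 3 of 7 measured, gave 572 to 648, 1861 to 1973 and 2109 to 2480, with Dazl and Ddx4 undetected in androgenetic cells. Dppa3 was the brightest of the 3 genes. In parthenogenetic against fertilized cells Dazl was 1.64-fold higher (adjusted p = 0.000349), whereas Dppa3 was lower (log2 change -0.41, adjusted p = 0.024). Ddx4 did not pass there (-0.31, adjusted p = 0.199).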

How the data were processed

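RNA from 8 mouse ES cell samples was hybridised to 1 Illumina bead array each, from biotin-labelled cRNA, and read with BeadStudio 3.1.3, per the submitters' processing notes. The authors deposited non-normalized linear intensity values and a detection p-value for 25697 probes, and separately a table of log2 values for 12891 probes. Intensities were background-corrected from the detection p-values and quantile normalized with neqc (limma 3.58.1, R 4.3.3, offset 16). The filter kept 12300 probes, those whose detection p was below 0.01 on 2 or more of the 8 arrays. A single limma fit over the 8 arrays estimated the 3 group means, leaving 5 residual degrees of freedom, and eBayes tested their differences, two-sided, with Benjamini-Hochberg adjustment over kept probes. It was tested on simulated data. Depth on arrays is limited by signal over background and by the number of arrays. Gene symbols came from the platform annotation, and chromosomes and promoter sequences from RefSeq, assembly GRCm38.p6. Annotation covers probes of the authors' log2 table alone. All probes of the members were described, every measured member of each list was counted, all other measured family genes and up to 3 leading genes per list and comparison were named, and the 5 most correlated genes per member. Genes with several probes were read from the brightest one. The members and lists were chosen with earlier results of these data known.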

Additional observations from a re-analysis of the deposited data

How the results depend on the processing

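Each result was recomputed with the authors' log2 table, no background correction, median scaling, cyclic loess, an offset of 50, no filter, detection on all 8 arrays, only the 2 groups compared, a replicate block, and without each array, as far as each applied. Of 252 recomputed changes and counts of calls, 2 (both Maged1 in parthenogenetic against fertilized cells, given above) lost the call, and 0 reversed. Mageb4 is included in these numbers, although its probe was kept only because the 2 parthenogenetic arrays detected it. In the main fit 39.7% to 74% of all kept probes were called, so a kept call singles out no member. The 45 recomputed differences between Mageb4 and the other members kept their direction, but their permutation p could pass the threshold under no setting. Detection on all 8 arrays removed Mageb4 and left 3 members, all called. Same-numbered arrays share a number and a passage, but the correlations of their deviations from the group means ran from -0.090 to 0.067 and so do not pair them. With the replicate block Maged1, Maged2 and Magee1 were called in each comparison, and the change of Mageb4 minus the other members was -2.62, 1.07 and -3.84. Without 1 array it ran from -2.73 to -2.46, from 1.02 to 1.29 and from -3.84 to -3.65. The range over the other alternatives in parthenogenetic against fertilized cells was 0.46 to 1.12. Median scaling shifted the median of all kept probes by 0.14 in androgenetic against fertilized and by 0.18 in androgenetic against parthenogenetic cells. Each member had 1 probe, so averaging probes changed nothing. The fold changes of Mageb4 are limited by signal near background.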
